A study of Bos taurus with 34 samples.

Results

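The levels of 10 genes of the smooth muscle contractile apparatus were followed through the oviduct and uterine lining of heifers: ACTG2, CNN1, TAGLN, LMOD1, SMTN, MYH11, MYLK, CASQ2, DES and PGM5. Table rows were matched to these symbols by their RefSeq transcript, and the row with the highest mean raw count stood for each gene. All 10 genes had a row, 12 of the 38568 rows in the count table in all, since MYLK had 3 rows and each other gene had 1.

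Smooth muscle cells contract when calcium activates calmodulin and myosin light chain kinase, and phosphorylated myosin then pulls on actin filaments anchored in dense bodies and at the cell membrane. In the cow, layers of smooth muscle form the myometrium below the endometrium and the muscular coat of the oviduct below its mucosa. Vessel walls inside the lining hold smooth muscle cells and pericytes as well, and these use many of the same proteins.

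RNA was sequenced from 5 adult nulliparous Holstein heifers whose cycles had been synchronised with a 5-day progesterone-insert protocol (CIDR-Synch) and which were slaughtered on day 2 after ovulation. Every group comes from these same animals, so groups share genotype, age class and treatment and differ by site and side. The sites were the ampulla (the wide upper part of the oviduct) and 2 levels of the uterine horn, upper and mid, each on the side of ovulation (ipsilateral) and on the opposite side (contralateral), with the uterine body as the last. Each of the 7 groups held 5 heifers, numbered 10872, 10882, 11033, 11070 and 11110, except the ipsilateral upper horn with 4, because that site of heifer 11110 was not analysed here.

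The 34 libraries held 11619486 to 30412782 counts, with a median of 20610132. Levels are given as CPM, counts scaled to library size with TMM factors. Differences are given as the log2 fold change ± SE from edgeR's quasi-likelihood F test in a model of site group plus heifer. The test itself gives no SE, so the SE was derived as the absolute log2 fold change divided by the square root of F. Benjamini-Hochberg adjustment covered all 17241 transcripts tested, and a gene was called at an adjusted p under 0.05. The labels were checked against cell markers: the summed level of 6 oviduct epithelium markers was 1902 to 4883 CPM in ampulla libraries and 31.7 to 128 CPM in uterine libraries other than the contralateral mid horn of heifer 10882, which stood at 1448 CPM. It is 1 of 3 doubted libraries; the others, which held the fewest features, are heifer 11033's upper horn and heifer 11070's ampulla, both contralateral. Results were recomputed without these 3. A nuclear 18S ribosomal transcript took up to 23.5% of a library's counts.

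The depth behind the genes differed widely. PGM5 had 808090 counts over all libraries, CNN1 161592, DES 161275, LMOD1 63901 and ACTG2 47096, whereas CASQ2 had 791, MYLK 629, TAGLN 337, SMTN 173 and MYH11 2. RefSeq lists 9 transcripts for MYLK, 10 for SMTN, 3 for MYH11 and 2 for TAGLN, and 1 for each of the other 6 genes. Counting was per transcript, and reads shared by several transcripts of a gene can be lost in such counting, so a low level of MYLK, SMTN, MYH11 or TAGLN here is no measure of the gene's total RNA. The same can hold for other genes named below, such as ACTA2, TAGLN2 and CNN2, whose number of transcripts is not given here. Levels of different genes were not compared. Of the 10 genes, 9 passed the filter on low counts, and MYH11, the smooth muscle myosin heavy chain, did not.

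**Figure D1:**
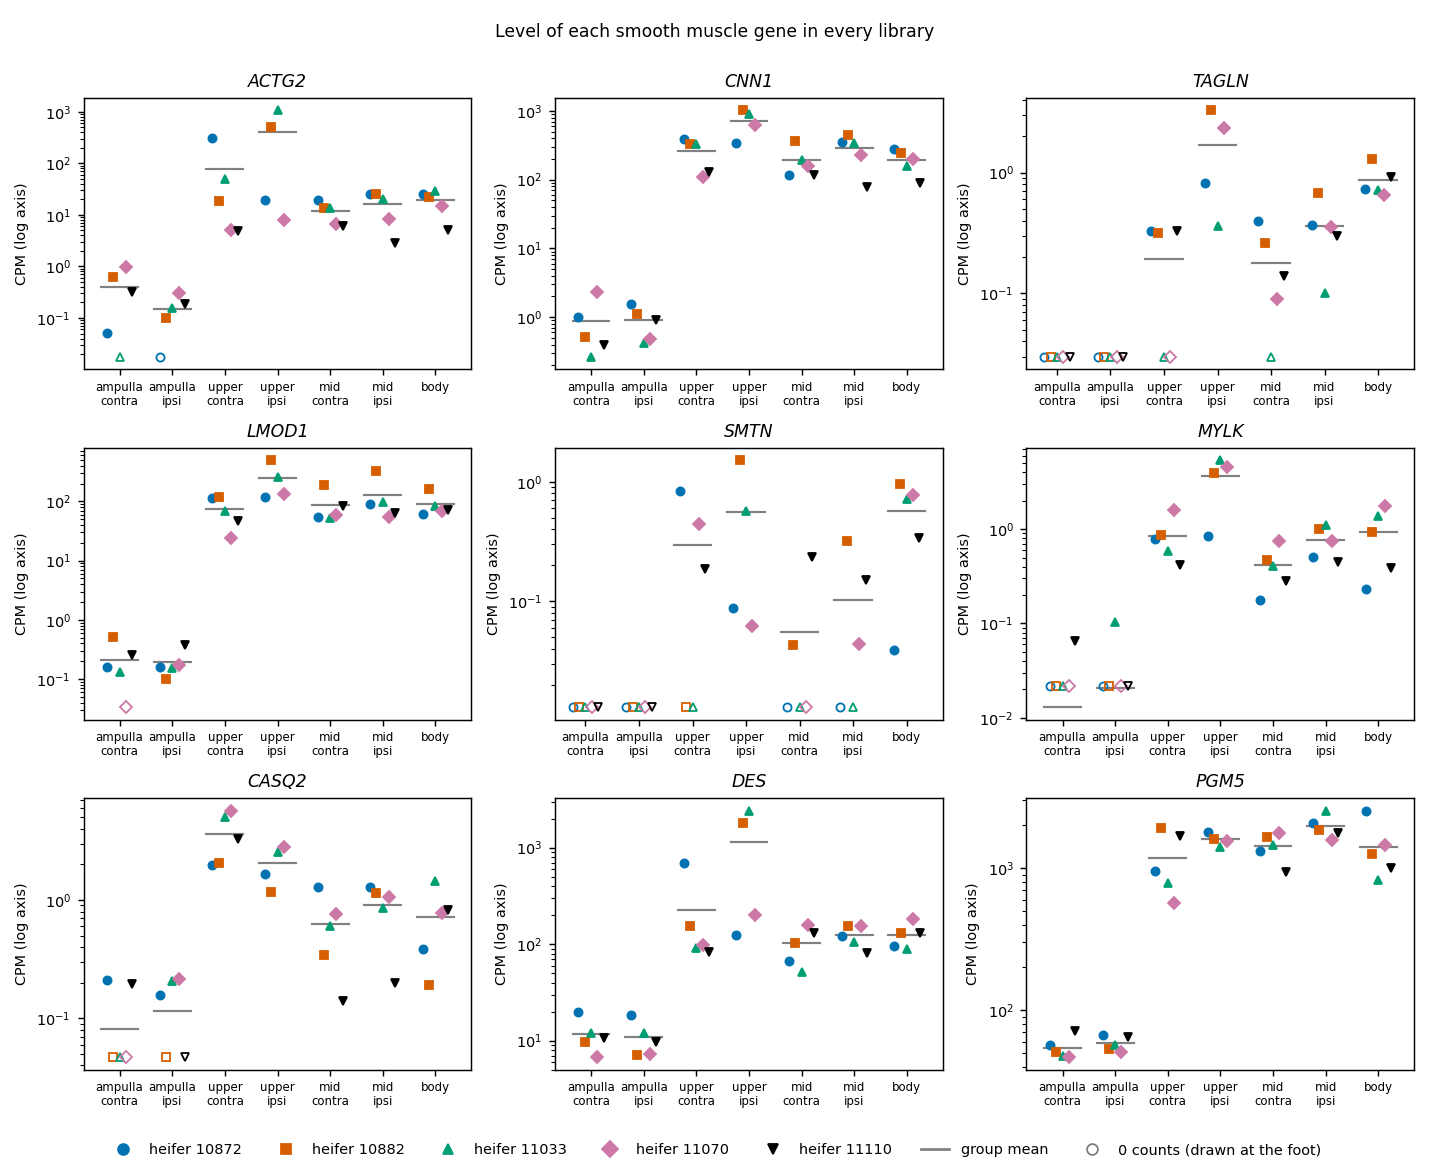
CPM on a log axis for the 9 tested genes, with 1 panel per gene and 1 column per site group; each point is a library, its shape and colour give the heifer, grey lines are group means, and open symbols at the foot are libraries with 0 counts. Every ampulla library lies under every uterine library in the panels of 6 genes, all but TAGLN, SMTN and CASQ2, and in the panels of DES and ACTG2 the ipsilateral upper horn spans from 124 to 2423 CPM and from 7.86 to 1069 CPM.

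The comparison of ampulla with endometrium, the uterine lining, gave the largest differences. All 9 tested genes were lower in the ampulla at an adjusted p under 0.05 with edgeR, and each was lower there in 5 of 5 heifers. The background is high in this comparison: 64.9% of all tested transcripts were called, 35.6% as lower and 29.4% as higher. A gene that passed the filter only through the endometrium had to differ, so the count of 9 is a description. ACTG2, LMOD1, MYLK, CASQ2, TAGLN and SMTN passed in this way, having few ampulla counts. Their adjusted p-values and any lack of overlap in this comparison are therefore a description too. The median log2 fold change of the 9 genes was -5.49, beside a median of -0.18 over all tested transcripts. That of the 9 genes was -5.25 with the genes at 0 counts in the ampulla set at their lower bound.

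Among the thin filament genes, ACTG2 codes for the gamma actin of smooth muscle. Its contralateral ampulla libraries stood at 0.0523, 0.634, 0, 0.959 and 0.323 CPM in the order of heifer numbers, and its ipsilateral ones at 0, 0.10, 0.155, 0.303 and 0.185 CPM. In the 24 endometrium libraries it ran from 2.81 to 1069 CPM with a median of 19.1. The ampulla and endometrium libraries did not overlap. Averaged over heifers, ACTG2 stood at 0.271 ± 0.243 CPM in ampulla and 78.3 ± 80.6 CPM in endometrium (SD, n = 5). The log2 fold change was -6.85 ± 0.92 (edgeR adjusted p = 4.7e-07). The SD in the endometrium was as large as the mean, with 3 upper horn libraries far above the rest.

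CNN1 codes for calponin 1, an actin-binding protein that holds back myosin's ATPase. It ran from 0.262 to 2.32 CPM in the 10 ampulla libraries, with a median of 0.715, and from 77.6 to 1020 CPM in the endometrium, with a median of 258. The lowest endometrium library was thus far above the highest ampulla library. Its log2 fold change was -8.15 ± 0.37 (edgeR adjusted p = 2.82e-18). LMOD1 codes for leiomodin 1, which starts new actin filaments in smooth muscle. Its ampulla libraries lay between 0 and 0.507 CPM, with a median of 0.157, and its endometrium libraries between 24.01 and 492 CPM, with a median of 83.9. This was the largest of the fold changes resting on more than 3 ampulla counts, -8.98 ± 0.32 (edgeR adjusted p = 4.26e-21).

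TAGLN, transgelin, and SMTN, smoothelin, are actin-associated proteins of differentiated smooth muscle. Both had 0 counts in all 10 ampulla libraries. In the endometrium TAGLN averaged 0.650 ± 0.330 CPM and SMTN 0.344 ± 0.176 CPM (SD, n = 5 heifers). With 3 counts over the 10 ampulla libraries as the floor, TAGLN was at least 38.1-fold and SMTN at least 20.2-fold higher in the endometrium. Some endometrium libraries also had 0 counts of either gene, so the regions overlapped at 0.

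Of the myosin genes, MYLK codes for the kinase that switches on myosin. It had 3 counts in the ampulla, 1 in the contralateral library of heifer 11110 and 2 in the ipsilateral library of heifer 11033. The endometrium libraries ran from 0.178 to 5.35 CPM, all above the highest ampulla library at 0.104 CPM. The endometrium level was 67.6 times that of the ampulla, with a 95% counting interval of 23.1 to 328. MYH11 had 1 count in the ipsilateral upper horn of heifer 11033 and 1 in the uterine body of heifer 11070, too few for any comparison.

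CASQ2, calsequestrin 2, buffers calcium inside the sarcoplasmic reticulum and is best known from heart muscle. It ran up to 0.216 CPM in the ampulla, where 5 of 10 libraries had 0 counts, and its endometrium libraries ran from 0.140 to 5.72 CPM. The regions therefore overlapped in CASQ2. The log2 fold change was -3.41 ± 0.48 (edgeR adjusted p = 2.49e-07).

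DES and PGM5 belong to the network that ties contractile filaments to the cell surface. DES codes for desmin, the intermediate filament of muscle. Its contralateral ampulla libraries stood at 19.9, 9.70, 12, 6.71 and 10.5 CPM and its ipsilateral ones at 18.5, 7.05, 12.1, 7.36 and 9.73 CPM, in the order of heifer numbers. Heifer 10872 was the highest on both sides. Endometrium libraries ran from 50.9 to 2423 CPM with a median of 127, and the log2 fold change was -4.13 ± 0.47 (edgeR adjusted p = 1.52e-08). PGM5 codes for aciculin, a relative of phosphoglucomutase found at muscle adhesion sites. It was the gene with the steadiest levels: 46.5 to 71.1 CPM in ampulla and 564 to 2541 CPM in endometrium, a log2 fold change of -4.70 ± 0.21 (edgeR adjusted p = 7.74e-19).

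For 6 of the 9 genes (ACTG2, CNN1, LMOD1, MYLK, DES and PGM5) every ampulla library lay under every endometrium library, which held for 6.54% of all tested transcripts. Markers of other cell types moved in the same comparison. All 7 tested markers of pericytes and vessel walls, all 7 of stroma and all 6 of endothelium were lower in the ampulla, and 5 of 6 general epithelium markers were higher. The summed level of 10 pericyte and vessel wall markers was 56.3 to 384 CPM in ampulla and 503 to 1756 CPM in the endometrium. NOTCH3 was the highest of the 10 in ampulla, at a median of 257 CPM in ampulla and 345 CPM in the endometrium with overlapping ranges, and CSPG4 stood at 34.8 and 104 CPM. RGS5 was at a median of 0.142 and 294 CPM, and KCNJ8 had 0 counts in every ampulla library. So had ACTA2, the alpha actin of smooth muscle, which ran up to 0.890 CPM in endometrium libraries. That is the level of a single transcript row and may not measure the gene's total RNA. The 7 stroma markers summed to 42.1 to 116 CPM in ampulla and 34350 to 79200 CPM in the endometrium. Fewer cells of a type and less RNA per cell cannot be told apart in bulk tissue, and the part of these cell types in the smooth muscle genes was not tested. The count of 9 was the same without the 3 doubted libraries.

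**Figure D2:**
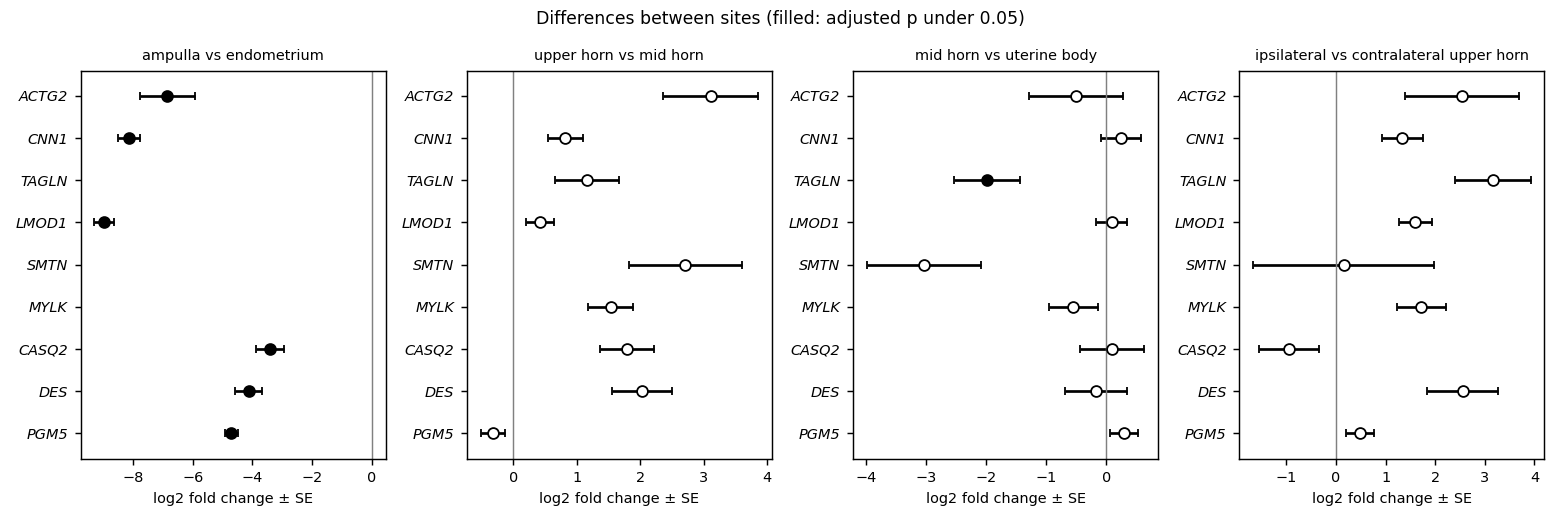
Log2 fold change ± SE from edgeR for the tested genes in 4 comparisons; filled points have an adjusted p under 0.05, and TAGLN, SMTN and MYLK are left out of the first panel because they had 0 or 3 counts in the ampulla. All 6 points of the first panel lie under -3, TAGLN is the 1 filled point of the other panels, and most points of the upper horn panels lie above 0 unfilled.

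Within the uterus the genes ordered the sites differently. By group median, the ipsilateral upper horn was the highest of the 7 groups for ACTG2 (268 CPM), CNN1 (755 CPM), LMOD1 (193 CPM), MYLK (4.24 CPM), TAGLN (1.59 CPM) and DES (991 CPM). The contralateral upper horn was highest for CASQ2 (3.30 CPM), the uterine body for SMTN (0.723 CPM) and the ipsilateral mid horn for PGM5 (1863 CPM). The ipsilateral upper horn medians of ACTG2 and DES lay in a gap between 2 low and 2 high libraries. Without either high library they were 19.6 CPM for ACTG2, under the uterine body, and 202 CPM for DES. Below the highest group, DES medians were 130 CPM in the uterine body, 120 in the ipsilateral mid horn, 103 in the contralateral mid horn and 98.1 in the contralateral upper horn, and the ranges of these groups overlapped. ACTG2 medians in the same 4 groups were 22.6, 20.7, 13.6 and 19.0 CPM, again with overlapping ranges. TAGLN medians were spread further, at 0.737, 0.353, 0.140 and 0.318 CPM in that order of groups.

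None of the 9 tested genes was called between the upper horn and the mid horn with edgeR, where 0.0174% of all tested transcripts were called, 0.0116% as higher in the upper horn. At an unadjusted p under 0.05 there were 7, beside 6.08% of all tested transcripts, and DESeq2 called 4, beside 0.122%. The pair with the lowest p was MYLK and CASQ2. MYLK stood at 0.796, 0.874, 0.580, 1.59 and 0.418 CPM in the contralateral upper horn and at 0.849, 3.90, 5.35 and 4.58 CPM in the ipsilateral one, in the order of heifer numbers. In the mid horn it ran from 0.178 to 1.11 CPM, so 3 ipsilateral upper horn libraries and 1 contralateral one lay above every mid horn library. Its log2 fold change was 1.53 ± 0.35 (edgeR adjusted p = 0.418).

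CASQ2 stood at 1.97, 2.07, 5.03, 5.72 and 3.30 CPM in the contralateral upper horn and at 1.67, 1.18, 2.57 and 2.79 CPM in the ipsilateral one. Its mid horn libraries were at 1.29, 0.346, 0.603, 0.756 and 0.140 CPM on the contralateral side and at 1.28, 1.14, 0.858, 1.06 and 0.201 CPM on the ipsilateral side. Of the 9 upper horn libraries only the ipsilateral one of heifer 10882 lay within the range of the mid horn. The difference in log2 was 1.79 ± 0.42 (edgeR adjusted p = 0.418). The median log2 fold change of the 9 genes was 1.53, beside 0.05 over all tested transcripts. Without the ipsilateral upper horn library of heifer 10872, which was low in DES, edgeR called 1 gene, DES, beside 0.0335% of all transcripts tested in that fit. In the other 33 fits that left out a library, 0 were called, and this library was singled out after its value was seen.

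Between the upper horn and the uterine body edgeR called 0 of the 9 genes and DESeq2 called 0, beside 0.0232% and 0.0696% of all tested transcripts. At an unadjusted p under 0.05 by edgeR there were 5, beside 11.2%. CASQ2 had the lowest p, with uterine body libraries at 0.388, 0.191, 1.45, 0.773 and 0.828 CPM and a log2 fold change of 1.89 ± 0.55 (edgeR adjusted p = 0.428). The uterine body libraries of DES were close together, at 94.6, 131, 89.3, 182 and 130 CPM, and its log2 fold change was 1.86 ± 0.60 (edgeR adjusted p = 0.428).

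TAGLN was the 1 of the 9 genes called between the mid horn and the uterine body, where 4.45% of all tested transcripts were called, 3.92% as lower and 0.528% as higher. Its uterine body libraries stood at 0.737, 1.30, 0.723, 0.657 and 0.925 CPM. The contralateral mid horn was at 0.400, 0.259, 0, 0.0890 and 0.140 CPM and the ipsilateral one at 0.366, 0.682, 0.101, 0.353 and 0.301 CPM. The sites touched at 1 library, the ipsilateral mid horn of heifer 10882, which lay above the lowest uterine body library. The log2 fold change was -1.99 ± 0.55 (edgeR adjusted p = 0.0454), from 59 counts in the mid horn and 109 in the uterine body. The call was lost without the heifer term (adjusted p = 0.161) and in 4 of 5 fits that left out a heifer.

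The upper horn was also compared between the side of ovulation and the opposite side. On the opposite side the library of heifer 11033 is a doubted one, and the 18S transcript took 19.6% of that of heifer 10882. With edgeR, 0 of the 9 genes were called, against 0.0058% of all tested transcripts. At an unadjusted p under 0.05 there were 6, beside 6.89% of all tested transcripts, and DESeq2 called 4, beside 0.087%. LMOD1 and TAGLN were the pair with the lowest p. LMOD1 stood at 114, 119, 69.7, 24.01 and 46.5 CPM in the contralateral upper horn and at 120, 492, 254 and 132 CPM in the ipsilateral one. Every ipsilateral library lay above every contralateral one, by a narrow margin in heifer 10872. The log2 fold change was 1.60 ± 0.33 (edgeR adjusted p = 0.149), and the ipsilateral side was higher in 4 of 4 heifers, by 1.05, 4.12, 3.65 and 5.49 times.

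TAGLN stood at 0.328, 0.318, 0, 0 and 0.325 CPM on the contralateral side and at 0.820, 3.27, 0.360 and 2.35 CPM on the ipsilateral side, which again did not overlap. The margin was narrow, as the lowest ipsilateral and the highest contralateral library each held 7 counts. The contralateral 0 of heifer 11033 comes from a doubted library. The log2 fold change of TAGLN was 3.16 ± 0.76 (edgeR adjusted p = 0.472), from 18 and 151 counts. Such a lack of overlap, with the ipsilateral side higher, held for 1.42% of all tested transcripts. The median log2 fold change of the 9 genes was 1.60 and that of all tested transcripts -0.04. Heifer 11110 has only a contralateral upper horn library, which entered the fit without a partner.

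Sums of some markers of other cell types were also higher on the ipsilateral side of the upper horn. The 10 pericyte and vessel wall markers summed to more on the ipsilateral side in 4 of 4 heifers, at 1094, 821.5, 831 and 1041 CPM against 558, 788.5, 503 and 684 CPM, and the 5th contralateral library stood at 1169 CPM. Of 7 tested markers in that list edgeR called 0, with 1 at an unadjusted p under 0.05. Stroma markers summed to more in 3 of 4 heifers, the exception being heifer 11033, and endothelium markers in 2 of 4. The part of these cell types in the side differences was not tested.

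**Figure D3:**
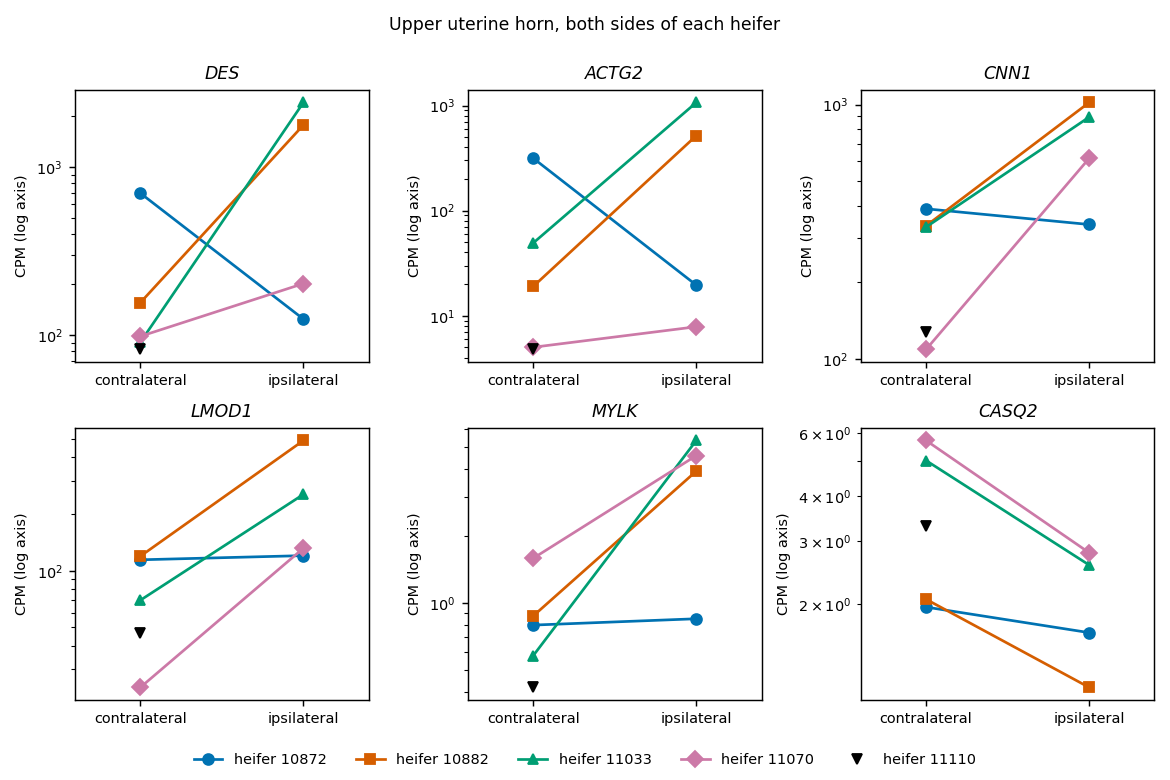
CPM on a log axis in the contralateral and ipsilateral upper horn for 6 genes; each line joins both sides of a heifer, and heifer 11110 has a contralateral point only. DES and ACTG2 fall along the line of heifer 10872 and rise along the other 3 lines, LMOD1 and MYLK are higher on the ipsilateral side in 4 of 4 heifers, and CASQ2 is lower there in 4 of 4.

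The heifers did not share 1 side for DES and ACTG2. DES stood at 699, 156, 90.5, 98.1 and 82.0 CPM in the contralateral upper horn and at 124, 1780, 2423 and 202 CPM in the ipsilateral one. The ratio of ipsilateral to contralateral level was 11.4 in heifer 10882, 26.8 in heifer 11033 and 2.06 in heifer 11070, but 0.178 in heifer 10872. ACTG2 did the same: 315, 19.0, 49.2, 5.02 and 4.78 CPM on the contralateral side and 19.6, 517, 1069 and 7.86 CPM on the ipsilateral side. Its ratios were 27.2, 21.7 and 1.57 in heifers 10882, 11033 and 11070 and 0.0620 in heifer 10872. The large ratios of both genes divide by the doubted contralateral library of heifer 11033 and by that of heifer 10882, with 19.6% of its counts in 18S.

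CNN1 varied less, with 390, 334, 330, 109 and 127 CPM on the contralateral side and 338, 1020, 894 and 615 CPM on the ipsilateral side, and was higher on the ipsilateral side in 3 of 4 heifers. CASQ2 was the gene that went the other way in 4 of 4 heifers, at 0.849, 0.569, 0.512 and 0.487 times the contralateral level. PGM5 was higher on the ipsilateral side in 3 of 4 heifers. It stood at 1801, 1597, 1413 and 1557 CPM there and at 949, 1900, 780, 564 and 1676 CPM on the contralateral side. SMTN was higher on the ipsilateral side in 2 of 4.

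Leaving out heifer 10872 takes out the pair in which DES, ACTG2 and CNN1 were lower on the ipsilateral side. Without it edgeR called 2 of the 9 genes between the sides of the upper horn, DES and LMOD1, beside 0.0458% of all transcripts tested in that fit. In the other 4 fits that left out a heifer, 0 were called. Heifer 10872 was singled out after its values were seen, so these calls are a description. LMOD1 alone was called without either upper horn library of that heifer (edgeR adjusted p = 0.00564 without the contralateral and 0.0345 without the ipsilateral one, beside 0.0174% and 0.0279% of transcripts). In the other 32 fits that left out a library, 0 were called.

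The other side comparisons gave no call. In the mid horn, 0 of the 9 genes were called with edgeR or DESeq2 and 0 had an unadjusted p under 0.05, beside 0% of all tested transcripts called with edgeR and 2.98% at an unadjusted p under 0.05. MYLK had the lowest p there, with a log2 fold change of 0.93 ± 0.49 toward the ipsilateral side, followed by PGM5 with 0.46 ± 0.26 (edgeR adjusted p = 1 for both). In the ampulla, 0 of the 9 were called with either tool and 0 had an unadjusted p under 0.05, where 0.0174% of all tested transcripts were called and 7.25% had such a p. The 2 genes of lowest p in the ampulla were ACTG2, at -1.38 ± 1.68 (edgeR adjusted p = 0.83), and PGM5, at 0.10 ± 0.26 (edgeR adjusted p = 0.931).

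The test of whether the side difference in the upper horn exceeded that in the mid horn called 0 genes with edgeR or DESeq2, and 0% of all tested transcripts with edgeR. LMOD1, at 1.22 ± 0.44, and DES, at 2.34 ± 0.93, were the 2 with an unadjusted p under 0.05, beside 1.46% of all tested transcripts (edgeR adjusted p = 1 for both).

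Most of the spread of DES and ACTG2 lay in 3 libraries, the ipsilateral upper horns of heifers 11033 and 10882 and the contralateral upper horn of heifer 10872. DES in these was 19.1, 14.0 and 5.50 times the endometrium median, and the next library reached 1.59 times. ACTG2 was 56.1, 27.1 and 16.6 times its median, and the next library reached 2.58 times. The ipsilateral upper horn of heifer 10882 was among the 3 highest of 24 endometrium libraries for 7 of the 9 genes, and that of heifer 11033 for 5. MYLK, CNN1 and LMOD1 were high in both, whereas PGM5 ranked 11th and 16th there and TAGLN 1st and 12th. The highest library of CASQ2 was the contralateral upper horn of heifer 11070. The contralateral upper horn of heifer 10872 was among the 3 highest for 3 of the 9 genes, DES, ACTG2 and SMTN. CNN1, LMOD1 and MYLK ranked 5th, 9th and 12th in it.

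Markers of pericytes and vessel walls, stroma and striated muscle gave no common pattern in these 3 libraries. Pericyte and vessel wall markers summed to 831, 822 and 558 CPM in them, within the 503 to 1169 CPM of the 9 upper horn libraries. Stroma markers summed to 40280, 79200 and 38150 CPM, which includes both the highest and the lowest of those 9 libraries. The 5 striated muscle markers with a row summed to 7.05, 6.29 and 5.99 CPM in them, within 2.80 to 7.93 CPM. Mesothelium markers were toward the low end, at 2.52, 4.53 and 4.26 CPM. Of the other muscle genes, grouped by role below, calcium and excitability genes had their 3 highest upper horn sums here (248, 215 and 142 CPM). So had receptors of contraction (241, 359 and 264 CPM) and small heat shock proteins (253, 286 and 344 CPM). Thin filament, myosin, dense body and transcription genes had not. These sums were not tested. The totals of the 3 libraries were 19224816, 27535032 and 21439856 counts, and the 18S transcript took 1.35%, 6.48% and 1.49%. How deep each sample was cut is not given in the sources used here.

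ACTG2 was among the most variable transcripts of the endometrium. After removing group means, the SD of its log2 CPM was 1.98, and 0.458% of all tested transcripts had a larger SD. SMTN had an SD of 1.21 and DES one of 1.12, with 6.35% and 10.3% of transcripts above them. PGM5 lay at the other end, with an SD of 0.489 that 74.9% of transcripts exceeded, under the median of 0.724.

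The genes did not vary as a block. Over the 24 endometrium libraries, with group means removed, 6 of the 36 gene pairs had a Pearson r over 0.5 and 12 had one under 0, with a median of 0.216. DES and ACTG2 had the highest r, 0.743, and SMTN and PGM5 the lowest, -0.489. Against the mean of the other genes, r was 0.767 for DES, 0.698 for LMOD1, 0.668 for ACTG2 and 0.650 for CNN1. It was 0.383 for SMTN, 0.366 for MYLK and 0.140 for TAGLN, and -0.090 for PGM5 and -0.177 for CASQ2. These correlations describe the libraries, which share 5 heifers and rest in part on the 3 upper horn libraries above. SMTN, MYLK, TAGLN and CASQ2 also have few counts.

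**Figure D4:**
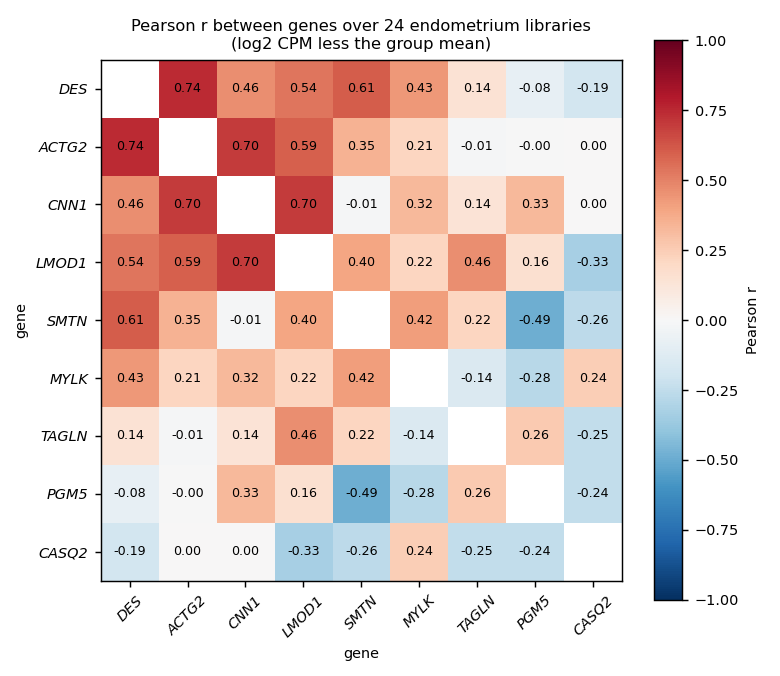
Pearson r between the 9 tested genes over 24 endometrium libraries, from log2 CPM less the group mean; red is positive and blue negative, and each square carries its value. DES, ACTG2, CNN1 and LMOD1 form a block with values of 0.46 to 0.74, and PGM5 and CASQ2 are near 0 or negative against most genes.

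The 10 named genes whose deviations were most like the mean of the 9 were CNR1 (r = 0.869), FBXL22 (0.847), KCNMB1 (0.842), SYNM (0.817), SFRP2 (0.790), BAG2 (0.783), RGS2 (0.782), ASB2 (0.775), CFL2 (0.768) and PDZRN3 (0.756), over the same 24 libraries. For each of the 10 the highest library was the ipsilateral upper horn of heifer 10882 or 11033. These genes were chosen for likeness to a mean that those libraries set, so this follows from the choice and their levels are a description. KCNMB1, the beta subunit of a calcium-activated potassium channel of smooth muscle, stood at 65.0, 50.1 and 33.5 CPM in its 3 highest libraries, against an endometrium median of 3.19. SYNM, synemin, a partner of desmin in intermediate filaments, reached 82.8, 63.6 and 63.3 CPM against a median of 30.7. SFRP2, a secreted modulator of Wnt signalling, reached 687, 478 and 281 CPM against 65.8. For all 3 genes these were the libraries with the most DES and ACTG2. That did not hold for all of the 10 genes. The contralateral upper horn of heifer 10872 was only 5th for RGS2 and was not among the 5 highest for CFL2.

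For a few genes 1 heifer was at the same end from site to site, while the order of the others changed. LMOD1 was highest in heifer 10882 in 5 of 5 uterine groups, with 186 CPM in the contralateral mid horn, 327 in the ipsilateral mid horn and 160 in the uterine body, where the next heifer reached 83.9, 97.6 and 83.9 CPM. Its mid horn value on the contralateral side comes from a doubted library. ACTG2 was lowest in heifer 11110 in 4 of 4 uterine groups, at 2.81 to 6.16 CPM. The other heifers stood at 13.6 to 28.8 CPM in the mid horn and uterine body, except heifer 11070 with 6.63 to 15.1 CPM. CNN1 was lowest in heifer 11110 in 3 of 4 groups, at 77.6 to 127 CPM over its uterine libraries. For DES the same heifer stood at 81.7 to 131 CPM. The order of heifers was thus not the same for each gene.

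Other muscle genes were called in both directions. Of 86 further genes of contraction listed by role, 69 had a row and 40 were tested. Between ampulla and endometrium 11 were higher in the ampulla, 21 were lower and 8 were not called. The median log2 fold change was -0.93. The share called higher was close to the 29.4% of all tested transcripts, and the share called lower was above the 35.6% of all tested transcripts. DESeq2 called 10 higher and 23 lower. Nothing is read from these shares.

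In the thin filament, TAGLN2, a transgelin found in many cell types, was higher in the ampulla by a log2 of 2.20 ± 0.27 (edgeR adjusted p = 1.93e-08). It stood at 8.63 ± 0.813 CPM there and 2.04 ± 0.559 CPM in the endometrium (SD, n = 5 heifers). CNN2, a calponin of non-muscle cells, was at -0.69 ± 0.55 (edgeR adjusted p = 0.268). In the myosin group MYH9, a non-muscle myosin heavy chain, was lower in the ampulla by a log2 of -1.14 ± 0.13, while RHOA, a GTPase that raises contraction, was higher by 0.40 ± 0.13.

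Of 6 tested genes of calcium handling and excitability, 4 were lower in the ampulla and 2 higher. JPH2, junctophilin 2, which couples the reticulum to the membrane, stood at 0.149 ± 0.106 CPM in ampulla and 19.4 ± 4.51 CPM in endometrium, a log2 fold change of -7.16 ± 0.47. ATP2A2, the reticulum calcium pump of many cell types, was higher in the ampulla at 0.85 ± 0.14. Of 9 tested genes of dense bodies, adhesions and the desmin network, 5 were lower and 2 higher, with LPP at -1.40 ± 0.14 and FLNC, filamin C, at 1.02 ± 0.15. Among 3 tested small heat shock proteins 2 were higher in the ampulla, HSPB8 at 1.42 ± 0.17 and CRYAB at 2.03 ± 0.23.

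Among 7 tested receptors of contraction, 4 were lower in the ampulla and 1 higher. OXTR, the oxytocin receptor, stood at 0.179 ± 0.268 CPM in ampulla and 104 ± 73.9 CPM in the endometrium (SD, n = 5 heifers), a log2 fold change of -9.34 ± 0.54, and the endometrial epithelium is also known to express it. EDNRA, an endothelin receptor, was at -3.14 ± 0.23. Of the transcription factors FOXF1 was lower in the ampulla at -3.18 ± 0.16, and SRF, which drives many contractile genes, was at 0.09 (edgeR adjusted p = 0.574), with 80.1 ± 23.1 CPM in ampulla and 74.8 ± 23.0 CPM in the endometrium.

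Between uterine sites and sides, 1 of these 40 genes was called with edgeR, ITGA7, an integrin of muscle cells, lower in the mid horn than in the uterine body by a log2 of -2.48 ± 0.71 (edgeR adjusted p = 0.0452). That share is under the 4.45% of all tested transcripts called there. ITGA7 is named as the single call and was chosen after its value was seen. DESeq2 called 2 of the 40 in that comparison, beside 15.7% of all tested transcripts, and 1 between the upper horn and the uterine body, and both tools called 0 in the others. At an unadjusted p under 0.05, there were 10 of the 40 between the sides of the upper horn, beside 6.89% of all tested transcripts, and 0 between those of the mid horn, beside 2.98%, with edgeR.

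**Figure D5:**
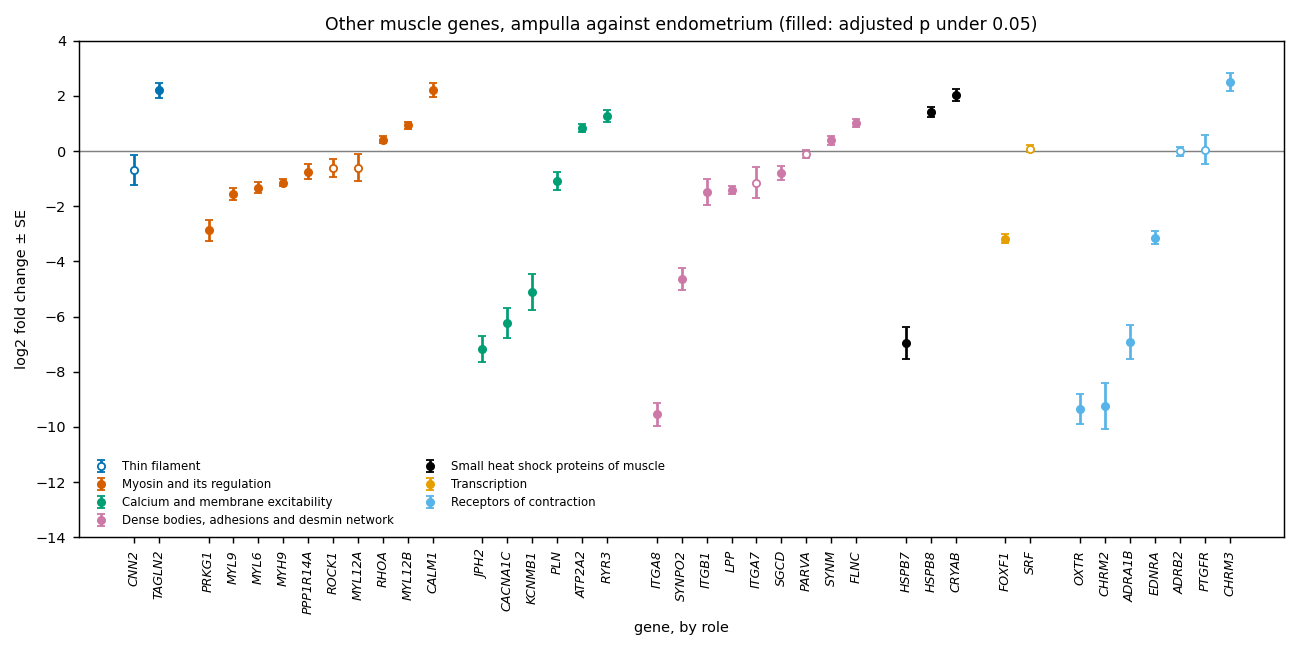
Log2 fold change ± SE of 39 of the 40 tested other muscle genes, ampulla against endometrium (ACTA2, with 0 ampulla counts, is left out), grouped and coloured by role along the horizontal axis; filled points have an edgeR adjusted p under 0.05. The points run from under -9 to above 2, and each role holds points on both sides of 0.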

How the data were processed

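Directional RNA-seq libraries were made from total RNA, per the labels' protocols. Values are raw read counts per transcript, deposited by the authors as a single table. Per the submitters' processing notes the tools were STAR 2.7.9a, cutadapt, SAMtools and HTSeq. Which tool did what, and the build, annotation, strandedness and overlap mode of the counting, were not given in the sources used here. Gene names came from a RefSeq table (assembly ARS-UCD2.0), which matched 26092 of 38568 rows and 95.3% of counts; the rows of MYLK, TAGLN and MYH11 were matched without their version number.

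CPM used TMM factors; log2 CPM used a prior count of 2. Tests used edgeR 4.0.16 in R 4.3.3 (filterByExpr, robust quasi-likelihood F test, 7 groups plus heifer, all 34 libraries in 1 fit). The code was run on simulated data for upper horn against uterine body only, with 1 spread for all transcripts and no heifer effect. That run does not measure how the test performs on these data. An endometrium value weights the upper horn, mid horn and uterine body equally, and mean ± SD is over heifers. Floors of 3 counts and exact 95% intervals cover counting error only. The heifer term rests on the labels: deviations from group means correlated with a median r of 0.207 within heifers (99 pairs) and -0.0539 between heifers and groups (396 pairs). No 2 libraries of a group agreed within sampling noise (66 pairs, chi-square per transcript at least 44.8). Alternatives were DESeq2 1.42.0, its size factors, no filter, no heifer term, summed rows of a gene, no 18S row, and leaving out doubted libraries, each heifer and each library.

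The genes, the other lists and the alternatives were chosen with earlier results of these data known. All 10 genes are named; fold changes are given for each gene in the ampulla comparison where it has more than 3 ampulla counts, and otherwise for the genes called or the 2 of lowest p. Other muscle genes named are the 2 tested with the highest mean CPM in each role. Genes in the text outside this rule were chosen after their values were seen.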

Additional observations from a re-analysis of the deposited data

Results flagged for a closer look

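In 57 groups of 4 or 5 libraries, each gene's highest and lowest value was compared with its neighbour, and 7 stood apart from the rest of their group. The gap rule flags about 1 group in 20 where values are normally distributed. That was not checked for CPM, and all 7 were the highest value of their group, so the share expected by chance is not known here. DES in the contralateral upper horn stood at 699 CPM in heifer 10872, where the next library was at 156 CPM, and ACTG2 in the same library at 315 CPM, with the next at 49.2 CPM.

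LMOD1 stood apart in heifer 10882 at 3 sites: 186 CPM in the contralateral mid horn (next 83.9), 327 CPM in the ipsilateral mid horn (next 97.6) and 160 CPM in the uterine body (next 83.9). In the ipsilateral ampulla LMOD1 was at 0.369 CPM in heifer 11110, with the next library at 0.173 CPM. SMTN in the contralateral mid horn was at 0.234 CPM in heifer 11110, with the next at 0.0432 CPM; the whole group held 6 counts of SMTN.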

How the results depend on the processing

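The 9 calls between ampulla and endometrium were made under all 46 alternatives (7 changes of method or library set, 5 heifers and 34 libraries left out in turn). No named fold change reversed in any of 873 recomputed values. ACTG2, LMOD1, MYLK, CASQ2, TAGLN and SMTN passed the filter only through the endometrium and had to differ. This agreement is a description, since the same counts were used in all 46 alternatives. Between the sides of the ampulla and of the mid horn 0 members were called under each of them. Without the filter on low counts, 4 members were called between the upper horn and the uterine body, 6 between the upper and mid horn, 5 between the sides of the upper horn and 2 in the test of the side difference, each against 0. DESeq2 called 4 between the upper and mid horn (ACTG2, CASQ2, DES, MYLK) and 4 between the sides of the upper horn (DES, LMOD1, MYLK, TAGLN). The mid horn against the uterine body gave 1 call, and 2 (TAGLN, SMTN) with DESeq2 size factors, with DESeq2 or without the filter; over all transcripts its 767 calls became 1276, 2714 and 2057 under these, and 1 without the replicate block. Over all transcripts the calls by DESeq2 and without the filter were 12 and 150 for the upper horn against the uterine body (4 in the text), 21 and 207 for upper against mid horn (3), 15 and 173 for the sides of the upper horn (1), 16 and 150 for those of the ampulla (3), 19 and 140 for those of the mid horn (0) and 1 and 69 for the side difference (0). Without the replicate block they were 1, 0 and 1 for upper against mid horn and the sides of the upper horn and ampulla. Without the replicate block, that is without pairing by heifer, the TAGLN call was lost (0 members called), and no other call of a member changed.

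Leaving out 1 heifer or library gave 0 to 2 calls in the mid horn against the uterine body, 0 to 1 between the upper and mid horn and 0 to 2 between the sides of the upper horn. The TAGLN call was lost without 21 of 34 single libraries (adjusted p 0.0202 to 0.466 over the 34): every ipsilateral mid and upper horn, every contralateral mid horn except that of heifer 11110, every uterine body except that of heifer 10872, the ipsilateral ampullae of heifers 10872, 10882 and 11033 and the contralateral ampulla of heifer 11110. DESeq2 size factors moved the median log2 fold change of all transcripts. It went from -0.18 to -0.27 in ampulla against endometrium and from -0.06 to -0.17 in mid horn against uterine body. Depth limits TAGLN, SMTN, MYLK and CASQ2 most, and MYH11 could not be tested. In each case the cause of a changed call was not tested.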
